A study of Mus musculus with 106 samples.

Results

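The suppressor of cytokine signaling (SOCS) family was read at its 8 genes, Socs1 to Socs7 and Cish, out of 21938 protein-coding genes with a promoter. Members were taken by name, with no use of their values, and each was read at its promoter (1000 bp to either side of any start site) and across the gene body with 20000 bp to either side. The data were chromatin immunoprecipitation sequencing (ChIP-seq) peak lists of H3K27ac, which marks active promoters and enhancers, and of H3K4me3, which marks active promoters. All mice were C57BL/6J, aged 12 to 14 weeks when assigned to a group. Diabetic mice then received streptozotocin at 42 to 45 mg/kg daily for 5 days, and cells were collected 6 weeks after the last dose at a blood glucose above 13.9 mmol/L. Control mice carried no allele or transgene that the labels name. The cells called hematopoietic stem cells (HSCs) were whole marrow after removal of cells with CD3, CD4, B220, Ter119 or Gr1, so they were an enriched mixture rather than sorted stem cells. Bone marrow-derived macrophages (BMDMs) were grown for 7 days in L929-conditioned medium at 5 mmol/L glucose and then kept unstimulated or treated with lipopolysaccharide (LPS, 100 ng/mL) and interferon-γ (IFN-γ, 10 ng/mL). The study's general BMDM protocol gives 16 hours of treatment, and its ChIP-seq methods state no time. Each mark had 35 libraries, 6 in every group except unstimulated diabetic BMDMs, which had 5.

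Cytokine receptors of the JAK-STAT pathway activate Janus kinases, which phosphorylate STAT transcription factors, and STATs in turn switch on genes that include several SOCS members. SOCS proteins then close the loop: an SH2 domain binds the phosphorylated receptor or kinase, and a SOCS box joins the target to an Elongin and Cullin 5 ubiquitin ligase. Socs1 and Socs3 can also block the kinase directly. Socs1 restrains IFN-γ signaling, and loss of it leaves macrophages overresponsive to IFN-γ and LPS. Socs3 restrains the interleukin-6 receptor family in macrophages and the granulocyte colony-stimulating factor receptor in marrow.

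Short stretches of sequence around the start sites of the 3 members whose promoters are described most fully show which cytokine-responsive letters they carry. RefSeq promoter sequences matched 4 of the 8 members (Socs1, Socs3, Socs4, Cish), on GRCm38.p6. Letters of TTCNNNGAA, the core of a STAT site, and of GAAA, any 2 bases and GAAA again, the core of an interferon-stimulated response element, are in capitals, and both strands were searched from 250 bases before to 30 bases after the start site. The first sequence is the whole window of Socs1 (chr16:10785507-10785786, minus strand), and the other two are 30-base windows at the matches of Socs3 (chr11:117969502-117969531, minus strand) and Cish (chr9:107296654-107296683, plus strand), because exons of other transcripts reach into those promoters.
Socs1: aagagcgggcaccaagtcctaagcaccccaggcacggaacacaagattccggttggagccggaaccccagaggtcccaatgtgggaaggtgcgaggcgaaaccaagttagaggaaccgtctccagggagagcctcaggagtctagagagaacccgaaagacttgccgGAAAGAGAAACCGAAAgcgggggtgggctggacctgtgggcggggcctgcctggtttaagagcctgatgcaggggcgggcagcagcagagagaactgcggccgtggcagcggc
Socs3: agaaaccagccTTCTTAGAAgggagggggg
Cish: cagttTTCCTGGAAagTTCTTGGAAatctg
The Socs1 window held 2 overlapping matches of the interferon letters, starting at positions -83 and -77 relative to the start site, and no match of TTCNNNGAA. Upstream of this window, 1 match of TTCNNNGAA (TTCTTGGAA) lay within chr16:10785931-10786130, around the H3K27ac summit of the Socs1 promoter. That stretch is still within 1000 bp of the start site. The Socs3 window held 1 match of TTCNNNGAA at -154. The Cish window held 2 matches of the same letters, starting 0 and 11 bases from the start site. Over 32851 promoters of the same length, 7.83% held the STAT letters and 3.28% the interferon letters. Socs4 held neither, and Socs2, Socs5, Socs6 and Socs7 were not among the matched promoters. A match of letters is not evidence of a bound factor.

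The H3K27ac lists held between 51162 and 176559 peaks (median 124083), and the H3K4me3 lists between 13730 and 277213 (median 96580). No pair of libraries shared more than 0.0489% of its promoter scores, so every library was counted as a sample. As a check of the cell labels, stem and progenitor genes were called higher in H3K27ac in HSCs than in unstimulated BMDMs for 4 of 8 genes in both control and diabetic mice, and erythroid genes for 3 of 5 in both. Macrophage genes were called lower for 3 of 6 tested in control and 1 of 6 in diabetic mice, where 16.1% and 15.9% of all promoters were called in either direction, so the diabetic count was near that of all promoters. The mean percentile of the 5 erythroid promoters ran from 59.8 to 72.0 in control HSC libraries and from 56.3 to 70.6 in diabetic ones, against 38.8 to 48.9 and 41.9 to 46.7 in unstimulated BMDMs, where Gata1 was at or near the level of promoters without a peak. Erythroid promoters therefore moved with the HSC label, and their part in the results was not tested. The neutrophil gene Mpo was higher in HSCs in both, Pf4 was lower in controls and Gp9 higher in diabetic mice among 3 megakaryocyte genes, and 0 of 6 lymphoid genes were called. As a check of the stimulation labels, the mean percentile of regions that rose with LPS+IFN-γ in diabetic BMDMs, minus that of regions that fell, was computed in each control library, which took no part in choosing those regions. It was -31.1 in stimulated control library 5, against -1.002 to 26.3 in the other 5 stimulated control libraries, and 2.62 and -4.77 in unstimulated control libraries 5 and 6, against -34.5 to -5.95 in the other 4. Both libraries 5 lay outside the range of the rest of their groups, and unstimulated library 6 lay at the upper end of its group, next to library 1. These 3 control libraries are called in doubt below, and each control call of a member's promoter, and each control region call that was lost without them, is also given without them.

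**Figure D1:**
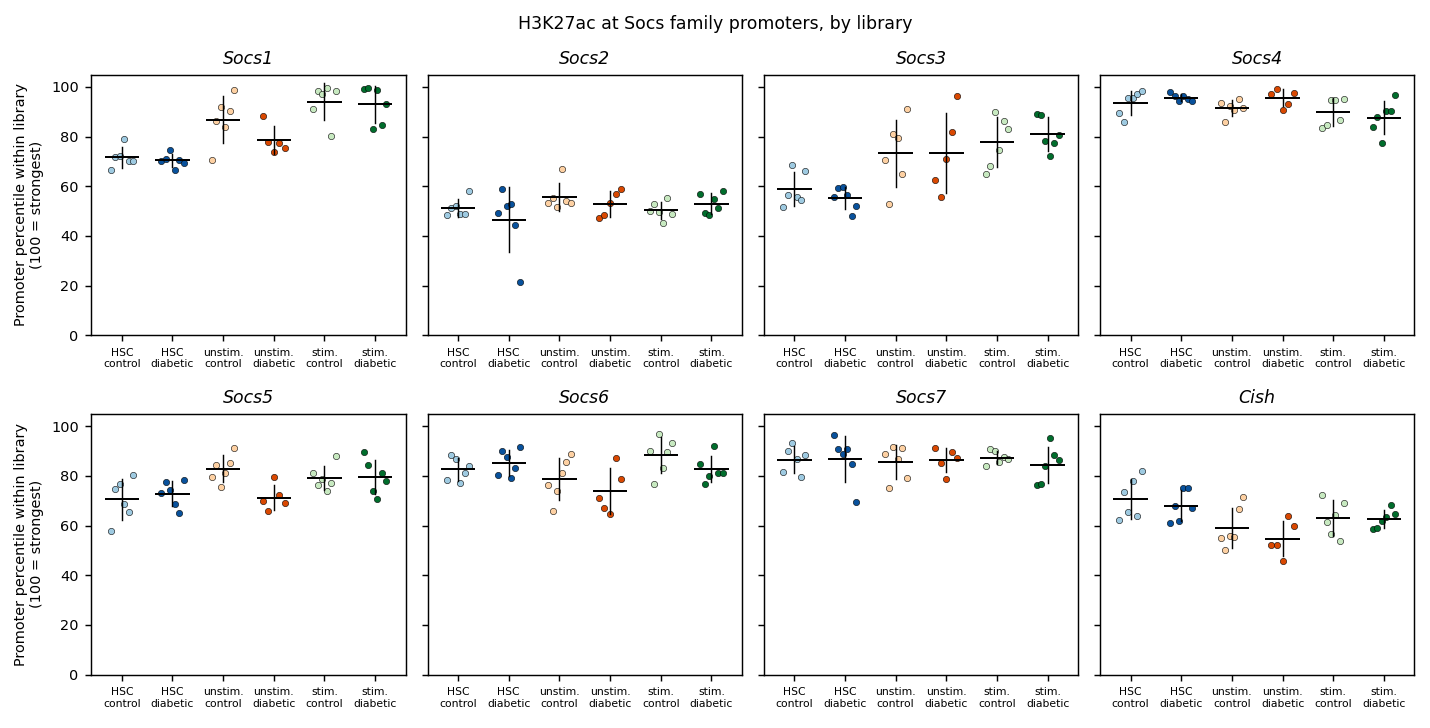
H3K27ac at the promoters of the 8 SOCS genes. The vertical axis is the percentile of the promoter's strongest peak within its library (100 is the strongest of 21938 promoters), each point is 1 library and bars are group means with SD. Socs1 lies near the top of the scale in stimulated BMDMs (means 94.1 and 93.0) and near 70 in HSCs (71.6 and 70.4).

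To compare lists of unequal length, each promoter was given the percentile of its highest −log10 p within its own library, where 100 is the strongest promoter and promoters without a peak share their middle rank. The percentile is a position in an order, not a level of the mark: it cannot tell fewer cells with the mark from less mark in each cell. Nearly every member carried H3K27ac in nearly every library, with a promoter peak in 35 of 35 libraries for 7 members and in 34 for Socs2. Means over the 35 libraries ran from 92.3 ± 5.12 (SD, n = 35) for Socs4, through 86.2 ± 6.00 for Socs7, 82.6 ± 11.5 for Socs1, 82.2 ± 7.74 for Socs6, 76.2 ± 7.38 for Socs5, 69.9 ± 13.6 for Socs3 and 63.3 ± 8.27 for Cish, to 51.6 ± 6.89 for Socs2. Along this order, neighbors differed by less than the SD of at least 1 of the pair except for Socs4 above Socs7 and Cish above Socs2. The score is not divided by peak width, and the median widths of these promoter peaks ran from 1.09 kb for Socs6 to 2.48 kb for Socs1. The Socs4 peak also covered the start site of Wdhd1, so its marks cannot be assigned to Socs4 alone.

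H3K4me3 put the members in another order. Socs7 came first (86.9 ± 8.29, SD, n = 35), followed by Socs2 (83.2 ± 10.9), Socs5 (82.5 ± 9.21), Socs1 (82.1 ± 11.1), Socs3 (76.2 ± 12.9), Socs4 (71.5 ± 16.2), Socs6 (69.5 ± 11.9) and Cish (67.5 ± 19.0), and every neighboring pair differed by less than the SD of either. In these means over all groups, Socs2, a brake on growth hormone signaling, was therefore the lowest member in H3K27ac and near the top in H3K4me3, and Socs4 was the highest in H3K27ac and in the lower part of the order in H3K4me3. The order was not the same in every group: in stimulated BMDMs Socs1 (H3K27ac means of 94.1 in control and 93.0 in diabetic mice) stood above Socs4 (89.9 and 87.7). H3K4me3 peaks were found in 35 of 35 libraries for 6 members, in 34 for Socs4 and in 33 for Cish.

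**Figure D2:**
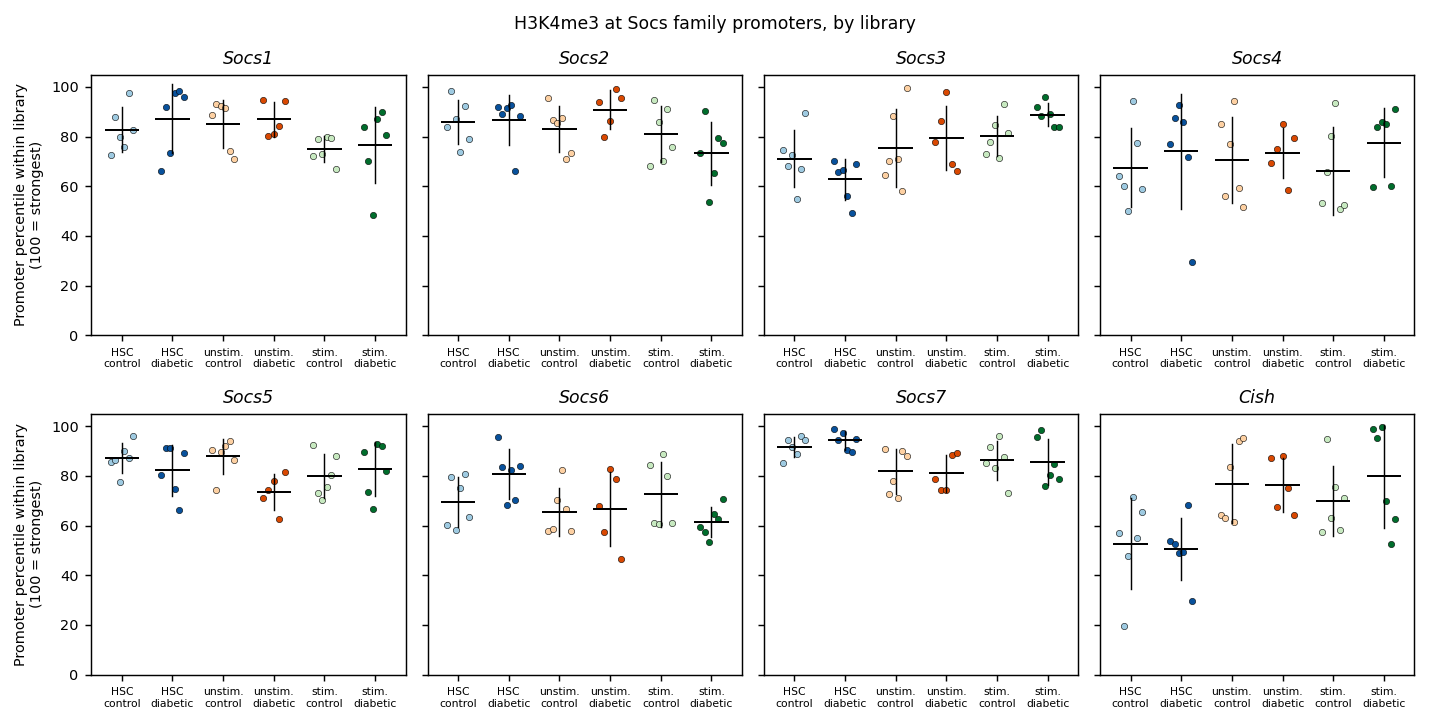
H3K4me3 at the promoters of the 8 SOCS genes, with the vertical axis as the percentile within the library, 1 point per library, and bars for group means with SD. Cish is spread from 19.6 to 99.8 over the 35 libraries, and its HSC means (52.7 and 50.4) lie under its unstimulated BMDM means (76.9 and 76.3).

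The first comparison asked how the promoters of progenitor-enriched marrow differed from those of unstimulated BMDMs. In control mice, H3K27ac was lower in HSCs at Socs1, Socs3 and Socs5 and higher at Cish, and in diabetic mice it was lower at Socs3 and higher at Cish. Of all promoters tested, 16.1% were called in control mice and 15.9% in diabetic mice, against 4 and 2 of 8 members. The median difference over the 8 members was -1.64 percentile points in control mice and 0.223 in diabetic mice, and that over all promoters 0.388 and 0.299. P values are from limma fitted to all 35 libraries of a mark, two-sided, with Benjamini-Hochberg adjustment over all promoters tested, and 0.05 was the limit for a call. Replicate numbers name no animal, so p values measure the spread between these samples, which may be partly technical.

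Socs1 had H3K27ac percentiles of 66.4 (lowest), 71.0 (median) and 78.9 (highest) in control HSCs and of 70.5, 88.3 and 98.6 in unstimulated control BMDMs. The groups overlapped only through unstimulated library 1, at 70.5. Library 6, which is in doubt, was the highest of its group. The difference was -15.3 ± 3.91 (SE; adjusted p = 0.00446 by limma), and it stayed past the threshold when any single library was left out. Without the 3 control libraries in doubt it was -11.5, with an adjusted p of 0.0525. In diabetic mice the HSC values were 66.7, 70.3 and 74.7, and the unstimulated BMDM libraries read 73.7, 75.6, 77.4, 78.0 and 88.4. These groups overlapped by 1 HSC library, and the difference of -8.24 ± 4.11 did not pass (adjusted p = 0.172 by limma; exact permutation p = 0.00649).

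Socs3 percentiles in control HSCs were 51.8, 56.1 and 68.5, against 53.0, 75.2 and 91.0 in unstimulated control BMDMs. The BMDM group was the wider of the pair and reached down into the HSC range. The difference was -14.5 ± 5.24 (SE; adjusted p = 0.0487 by limma), and the call was lost on leaving out unstimulated control library 1, 3, 4 or 6 or control HSC library 1, 2, 4 or 5, with an adjusted p of up to 0.170. Without the libraries in doubt it was -12.3 (adjusted p = 0.152 by limma). In diabetic mice, HSCs had 47.9, 56.1 and 59.5 and unstimulated BMDMs 55.8, 62.7, 70.8, 81.8 and 96.3. All but 1 of the BMDM libraries lay above every HSC library, and the difference was -18.3 ± 5.49 (SE; adjusted p = 0.0161 by limma), lost without unstimulated diabetic library 5 or 6 (adjusted p of up to 0.115).

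Cish, a STAT5 target that acts on receptors of erythropoietin and interleukin-2, moved the other way. Its percentiles in control HSCs were 62.3, 69.3 and 81.9, and in unstimulated control BMDMs 50.1, 55.5 and 71.3. Control libraries overlapped between 62.3 and 71.3, where 2 BMDM libraries lay. The difference was 11.7 ± 4.03 (SE; adjusted p = 0.0377 by limma). It was lost without unstimulated control library 1, 2, 3 or 4 or control HSC library 2, 4 or 6 (adjusted p of up to 0.119), and it was 16.8 without the libraries in doubt (adjusted p = 0.00500 by limma), the only one of the 4 control calls to remain there. In diabetic mice HSCs had 61.1, 67.4 and 75.2, and unstimulated BMDMs had 45.8, 52.1, 52.2, 59.8 and 64.0. A single BMDM library lay within the HSC range, and the difference was 13.2 ± 4.23 (SE; adjusted p = 0.0247 by limma), lost without unstimulated diabetic library 1, 2 or 4 or diabetic HSC library 4 or 5 (adjusted p of up to 0.0896).

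Socs5, a member with a long N-terminal region that has been tied to epidermal growth factor and interleukin-4 receptor signaling, was lower in control HSCs alone. Control HSCs had 57.8, 71.6 and 80.3 and unstimulated control BMDMs 75.7, 82.9 and 91.0. The difference was -12.3 ± 3.88 (SE; adjusted p = 0.0226 by limma), lost without unstimulated control library 6 or control HSC library 1 or 5 (adjusted p of up to 0.0943) and without the libraries in doubt (-9.64; adjusted p = 0.141). In diabetic mice, HSCs had 65.1, 73.8 and 78.2 and unstimulated BMDMs 65.7, 69.2, 69.7, 72.3 and 79.4. Those groups covered the same range, with a difference of 1.61 ± 4.07 (adjusted p = 0.837 by limma). Whether the cell type difference itself changed with diabetes was not tested.

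The other 4 members were not called for cell type in H3K27ac. Socs6, which binds insulin receptor substrates and the Kit receptor, came nearest in diabetic mice, where HSCs had 79.2, 85.3 and 91.5 and unstimulated BMDMs 64.8, 67.2, 71.0, 78.9 and 87.2, a difference of 11.5 ± 4.17 (adjusted p = 0.0501 by limma). The differences of Socs2, Socs4 and Socs7 lay between -6.37 and 2.14 percentile points in either disease group. Each of these 3 had an adjusted p of 0.339 or more.

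**Figure D3:**
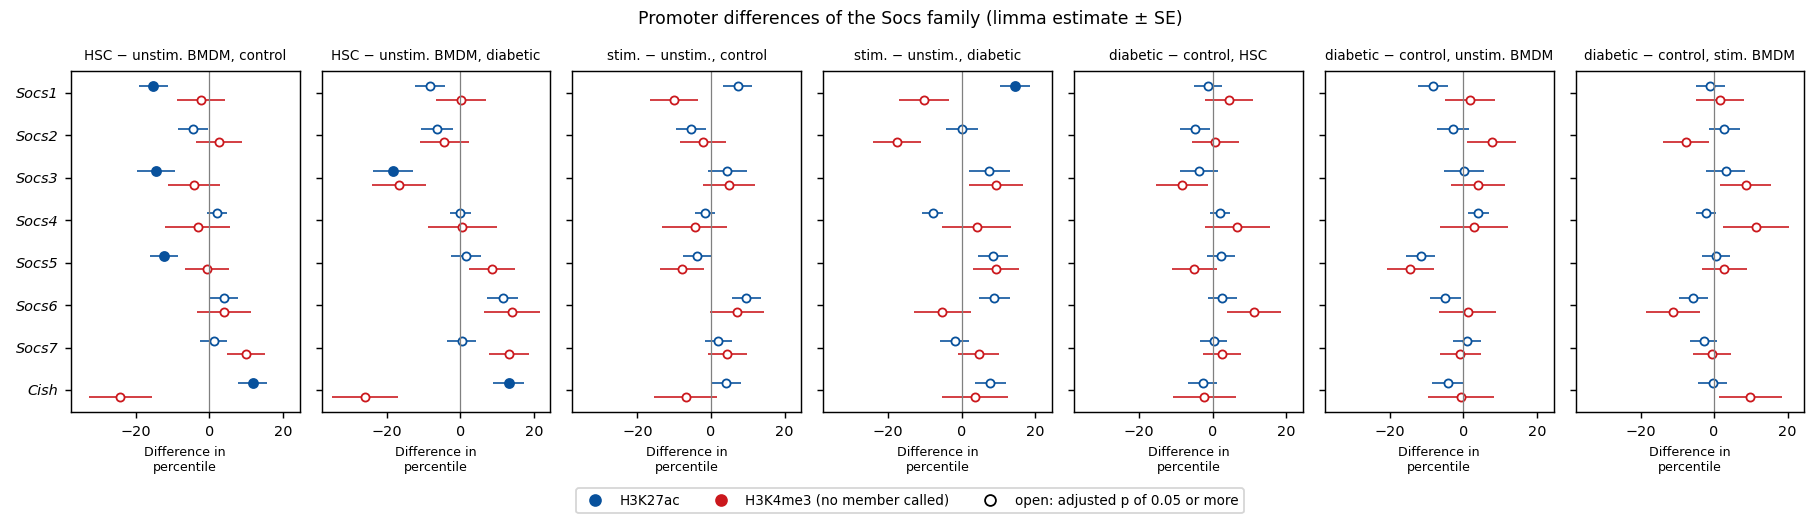
Differences in mean promoter percentile between groups for the 8 SOCS genes in both marks, with bars for 1 SE from limma on either side; filled points are calls at an adjusted p under 0.05. The H3K27ac calls are Socs1, Socs3, Socs5 and Cish for cell type in control mice, Socs3 and Cish in diabetic mice, and Socs1 for stimulation in diabetic BMDMs.

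H3K4me3 gave no member call for cell type, where 5.34% of all promoters tested were called in control mice and 0.766% in diabetic mice. At an unadjusted p under 0.05 limma had Cish alone in control mice and Socs3, Socs7 and Cish in diabetic mice. The exact permutation test with adjustment called none of the 17105 promoters in either disease group, so it says nothing about the members in particular. The smallest p that this test can give with these group sizes is 0.00216. Cish read 19.6, 56.0 and 71.5 in control HSCs against 61.3, 73.9 and 95.3 in unstimulated control BMDMs, and 29.6, 50.8 and 68.4 in diabetic HSCs against 64.1, 67.4, 74.9, 87.3 and 87.8. Most HSC libraries lay below every BMDM library. The differences were -24.2 ± 8.56 (SE; adjusted p = 0.0735 by limma) and -25.9 ± 8.98 (adjusted p = 0.126), opposite in sign to those of H3K27ac at the same promoter, and 1 HSC library of each disease group had no H3K4me3 peak at Cish. These had the shortest H3K4me3 lists of their groups, with 37378 peaks in control and 13730 in diabetic mice. Median list lengths were 49624 peaks in control HSCs and 161118 in unstimulated control BMDMs. In diabetic mice they were 89111 and 96580. For Socs7, diabetic HSCs had 89.7, 94.7 and 98.9 and unstimulated diabetic BMDMs 74.2, 74.5, 78.6, 88.3 and 89.3. The groups lay next to each other without overlap, and the difference of 13.3 ± 5.50 did not pass (SE; adjusted p = 0.200 by limma).

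The second comparison asked what LPS+IFN-γ did to BMDMs. In diabetic BMDMs H3K27ac rose at the Socs1 promoter, in a comparison with 2.92% of promoters called, and in control BMDMs no member was called, with 0% of promoters called (886 at an unadjusted p under 0.05). The exact permutation test with adjustment called no promoter in either disease group. A fit with the replicate number as a block called 47 promoters in diabetic BMDMs. The cell type and stimulation comparisons share the unstimulated libraries. Socs1 percentiles in stimulated diabetic BMDMs were 82.9, 96.0 and 99.4, against 73.7, 75.6, 77.4, 78.0 and 88.4 without stimulation. Unstimulated library 1, at 88.4, was the only one inside the stimulated range. The difference was 14.4 ± 4.11 (SE; adjusted p = 0.0417 by limma). This call was lost without stimulated diabetic library 1, 2 or 4 or unstimulated diabetic library 2, 4, 5 or 6 (adjusted p of up to 0.0979) and in a fit of the 2 groups alone.

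In control BMDMs, Socs1 stood at 80.1, 97.6 and 99.6 with LPS+IFN-γ and at 70.5, 88.3 and 98.6 without it. The ranges overlapped widely, and the difference was 7.23 ± 3.91 (adjusted p = 0.932 by limma; approximate 95% interval from the SE, -0.598 to 15.1). The overlapping ends were set by stimulated library 5, at 80.1 with the next at 91.2, and by unstimulated library 6, at 98.6. Both are in doubt, and the difference without the libraries in doubt is not given here. With the libraries in doubt included, the stimulation response in diabetic minus control BMDMs was 7.17 ± 5.67 (adjusted p = 0.853 by limma), so the response was not shown to differ between disease groups. Of the interaction over all H3K27ac promoters, 0% were called (1093 at an unadjusted p under 0.05).

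The remaining members gave no H3K27ac call for stimulation. The median difference over the 8 members was 7.66 percentile points in diabetic BMDMs and 2.97 in control BMDMs, beside -0.458 and 0.00684 over all promoters. Socs3 read 72.0, 79.4 and 89.0 in stimulated diabetic BMDMs against 55.8, 62.7, 70.8, 81.8 and 96.3 without stimulation, a difference of 7.51 ± 5.49 (adjusted p = 0.482 by limma). The Socs3 groups overlapped through the wide unstimulated libraries. Socs4, whose shared promoter was near the top of the order everywhere, differed by -7.94 ± 2.88 (adjusted p = 0.112 by limma). For H3K4me3, 0% of promoters were called for stimulation in control (565 at an unadjusted p under 0.05) and 0% in diabetic BMDMs (1164), and by the exact permutation test none in either. The member with the smallest p was Socs2, at 53.6, 75.4 and 90.3 with LPS+IFN-γ and at 79.7, 86.3, 93.9, 95.4 and 99.1 without it in diabetic BMDMs (-17.6 ± 6.60; adjusted p = 0.568 by limma).

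Known targets of LPS+IFN-γ gave few calls by the same measure. Of 13 such promoters tested of 14 listed, 2 were called higher in H3K27ac in diabetic BMDMs, Cxcl10 by 23.1 and Ptgs2 by 22.8 percentile points, and none was called in control BMDMs. Of all promoters, 2.92% were called in diabetic and 0% in control BMDMs. The difference was positive for 12 of the 13 in diabetic BMDMs (median 11.3) and for 11 in control BMDMs (median 6.61). The medians over all promoters were -0.458 and 0.00684. By this measure 11 of the 13 were not called in either disease group.

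The third comparison asked whether diabetes was associated with another order of the members' promoters. No member was called in either mark in HSCs, unstimulated BMDMs or stimulated BMDMs, and neither was any other promoter (0% in all 6 comparisons). Before adjustment, in the same order of cells, 318, 980 and 785 H3K27ac promoters and 773, 674 and 883 H3K4me3 promoters had a p under 0.05, and the exact permutation test with adjustment called none. The H3K4me3 interaction also had 0% called (805 at an unadjusted p under 0.05). Socs5 in unstimulated BMDMs had the smallest p of the members in both marks. Its H3K27ac percentiles were 75.7, 82.9 and 91.0 in control mice against 65.7, 69.2, 69.7, 72.3 and 79.4 in diabetic mice, and all but 1 of the diabetic libraries lay below every control library.

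The Socs5 difference was -11.6 ± 4.07 (exact permutation p = 0.0108; adjusted p = 0.805 by limma). Control library 6, in doubt, held the highest value (91.0), and without the libraries in doubt the difference was -8.98 (adjusted p = 0.928 by limma). The H3K4me3 percentiles of Socs5 were 74.4, 90.1 and 94.1 in control mice and 62.5, 71.1, 74.3, 78.0 and 81.6 in diabetic mice, a difference of -14.4 ± 6.30 (exact permutation p = 0.0108; adjusted p = 1.00 by limma). Without the libraries in doubt for that mark it was -14.6. Both marks were therefore lower by point estimate, and neither difference passed the adjustment over all promoters. For the other 7 members in H3K27ac, the disease differences ran from -8.26 (Socs1, unstimulated BMDMs; approximate 95% interval from the SE, -16.5 to -0.0455) to 4.04 (Socs4, unstimulated BMDMs; -1.72 to 9.80). Without the libraries in doubt the Socs1 difference was -4.49 (adjusted p = 0.968 by limma).

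Beyond the promoters, H3K27ac was read in regions merged from the 20000 strongest peaks of each list and found in at least 2 libraries. The 8 loci held 44 such regions: 11 at Socs3, 8 at Cish, 7 at Socs1, 6 at Socs7, 5 at Socs5, 3 at Socs4 and 2 each at Socs2 and Socs6. Their full lengths, with any part beyond the flanks, summed to 37.7 kb at the Socs3 locus (chr11:117966079-117970047 with its flanks, 44.0 kb). At the much longer Socs6 locus (302 kb) they summed to 2.05 kb. A region found in few libraries can enter this set through the group where it is high, and its test is then not independent of its choice. Leaving out a library did not redraw the regions. Distances below are from the nearest start site of the member to the region's summit, positive in the direction of transcription, on GRCm38. For cell type, 12 of the 44 regions were called in control mice (4 higher and 8 lower in HSCs, with 30.3% of all regions called) and 15 in diabetic mice (6 higher and 9 lower, with 27.3% called), so these shares were near those of all regions. For stimulation, 3 were called in diabetic BMDMs (4.98% of all regions) and none in control BMDMs (0% of all regions; 2711 at an unadjusted p under 0.05). By the exact permutation test with adjustment, no region was called for stimulation in either disease group.

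**Figure D4:**
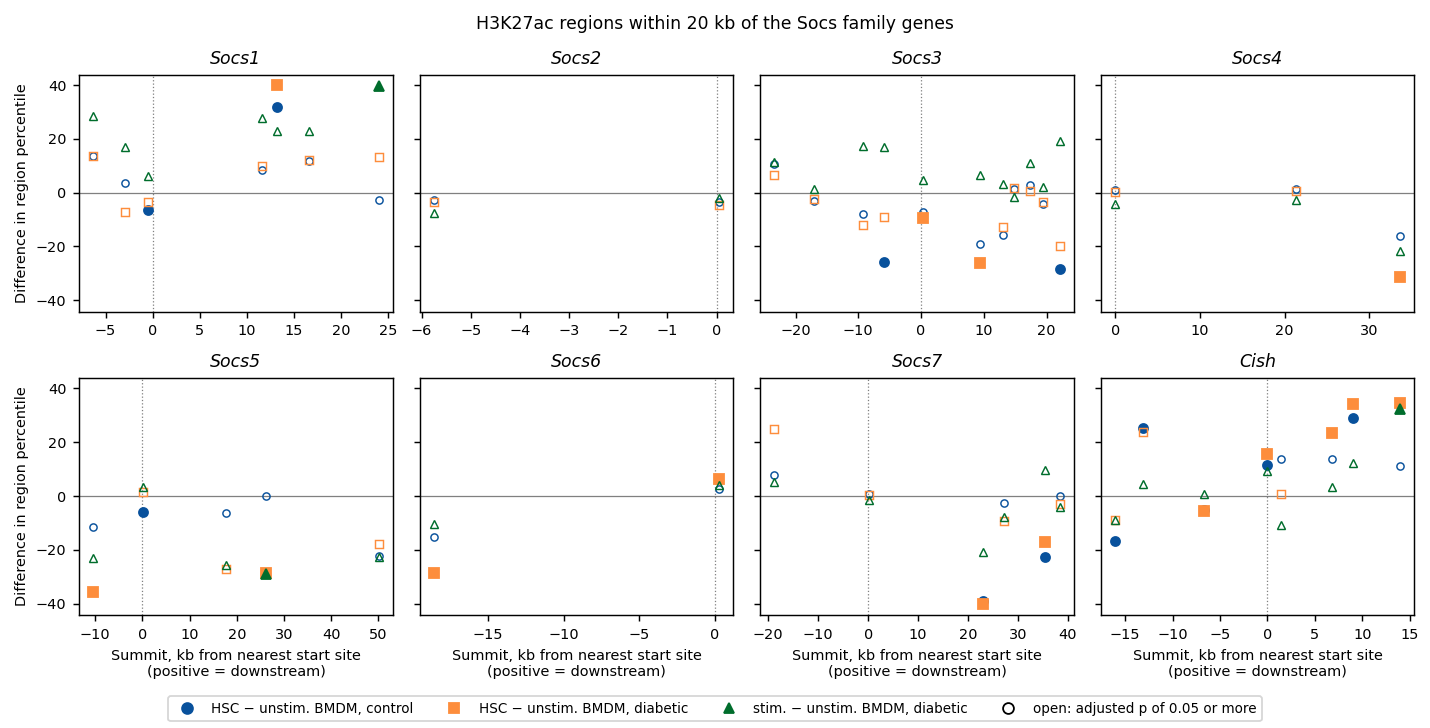
Differences in H3K27ac percentile at the 44 regions of the SOCS loci, plotted against distance in kb from the member's nearest start site, for HSCs minus unstimulated BMDMs in either disease group and for stimulated minus unstimulated diabetic BMDMs; filled points are calls at an adjusted p under 0.05. Cell type calls fall on both sides of 0, with Cish regions mostly above and Socs3, Socs5 and Socs7 regions below.

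At Socs1, the promoter and a region downstream of the gene differed between cell types in opposite directions. The region 13.2 kb downstream (chr16:10771821-10773211, intergenic) read 43.3, 52.6 and 71.3 in control HSCs and 4.36, 18.7 and 53.6 in unstimulated control BMDMs, and in diabetic mice 12.4, 56.8 and 69.5 against 4.92, 8.28, 11.4, 14.4 and 20.7. None of the 5 unstimulated diabetic libraries had a peak there, against 5 of 6 diabetic HSC libraries. The differences were 32.0 ± 9.49 (SE; adjusted p = 0.00796 by limma) and 39.9 ± 9.95 (adjusted p = 0.00199), and both held when any single library was left out. This region was among the 20000 strongest peaks of only 4 libraries. The 200 bases at its summit are printed because they hold 2 matches of the STAT letters, in capitals, which 2.82% of 44610 region windows held at least once (chr16:10772189-10772388, plus strand).
Socs1 downstream region: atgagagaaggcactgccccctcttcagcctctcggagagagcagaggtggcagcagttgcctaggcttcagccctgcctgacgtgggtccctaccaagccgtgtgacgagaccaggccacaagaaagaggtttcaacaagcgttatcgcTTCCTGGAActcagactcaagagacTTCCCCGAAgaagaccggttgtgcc
The region over the Socs1 promoter itself was lower in control HSCs (-6.41 ± 2.02; adjusted p = 0.0125 by limma), lost without unstimulated control library 6 or without the libraries in doubt (adjusted p = 0.117). The window of the same length at the summit of this promoter region held 1 match of the STAT letters (TTCTTGGAA).

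Another region downstream of Socs1 rose with stimulation. It lay 24.0 kb from the start site (chr16:10760352-10762779, intergenic) and read 27.7, 54.1 and 71.4 in stimulated diabetic BMDMs against 8.28, 11.4, 14.4, 16.3 and 20.7 without stimulation. The groups did not overlap: all 6 stimulated libraries had a peak there, against 1 of 5 unstimulated ones. The difference was 39.6 ± 8.54 (SE; adjusted p = 0.00395 by limma) and held when any single library was left out. With the replicate number as a block it was 36.1 and did not pass (adjusted p = 0.0751 by limma). The region was among the 20000 strongest peaks of only 3 libraries. Its highest percentiles lay in stimulated BMDMs, so its choice was not independent of this difference. In control BMDMs, with the libraries in doubt included, the region read 30.8, 51.2 and 63.9 with LPS+IFN-γ and 14.2, 33.4 and 43.4 without it, a difference of 19.0 ± 8.15 (adjusted p = 0.767 by limma). The difference between the disease groups' responses was 20.6 ± 11.8 (adjusted p = 0.747 by limma), and 0% of all regions were called for that interaction (3209 at an unadjusted p under 0.05). HSCs stood near unstimulated control BMDMs at this region, with means of 28.5 in control and 27.6 in diabetic mice.

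**Figure D5:**
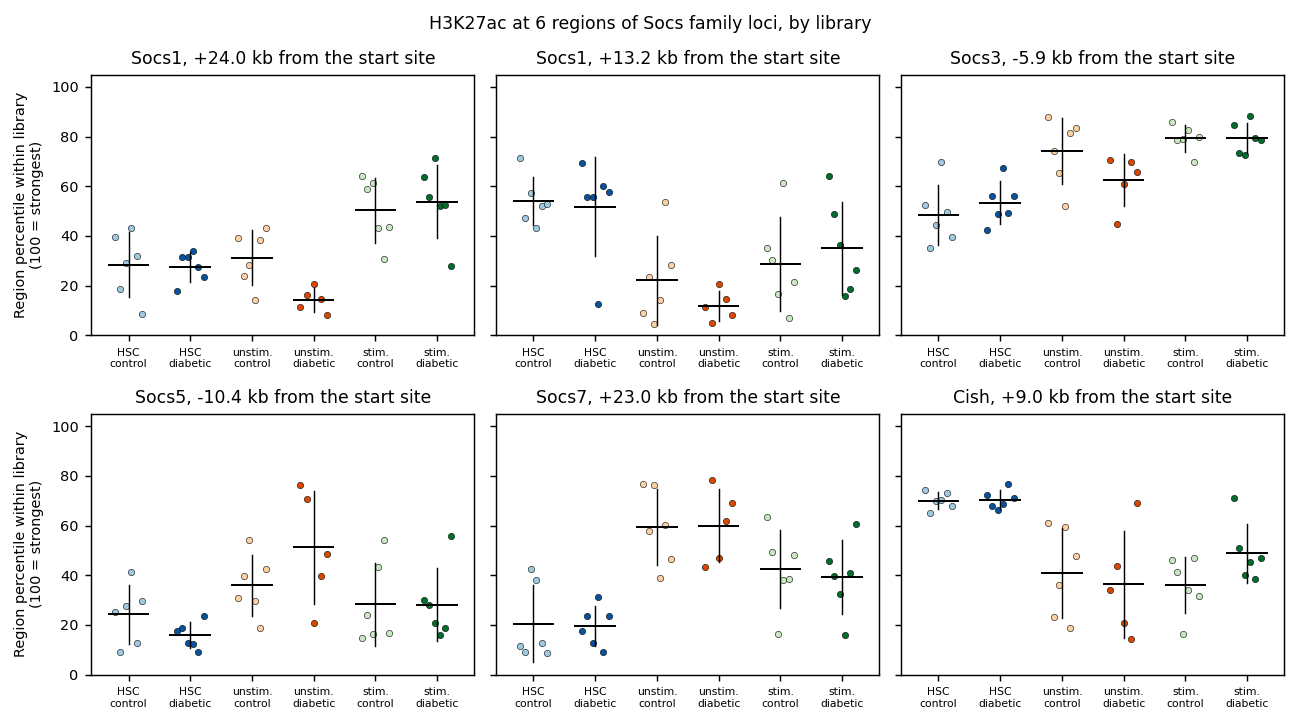
H3K27ac percentile in each library at 6 regions of the Socs1, Socs3, Socs5, Socs7 and Cish loci, by group, with bars for group means and SD. At the Socs1 region 24.0 kb downstream, stimulated diabetic libraries (27.7 to 71.4) lie above all unstimulated diabetic libraries (8.28 to 20.7).

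At Socs3, each called region was lower in HSCs. The region 5.9 kb upstream (chr11:117974475-117977178, intergenic) read 35.3, 46.9 and 69.6 in control HSCs and 52.2, 77.9 and 87.9 in unstimulated control BMDMs, a difference of -25.7 ± 6.03 (SE; adjusted p = 0.000881 by limma) that held when any single library was left out. In diabetic mice it read 42.2, 52.7 and 67.4 in HSCs and 45.0, 60.8, 65.5, 69.8 and 70.7 in unstimulated BMDMs, ranges that overlapped (-9.08 ± 6.32; adjusted p = 0.295 by limma). With LPS+IFN-γ the same region stood at 72.7, 78.9 and 88.3 in diabetic BMDMs, above all 5 unstimulated libraries. The difference of 17.1 ± 6.32 did not pass (adjusted p = 0.0958 by limma; exact permutation p = 0.00216, the smallest that these group sizes allow). Also lower in HSCs were a region 22.1 kb downstream in control mice (-28.3; adjusted p = 0.0207), and in diabetic mice a region 9.5 kb downstream (-26.2; adjusted p = 0.0132) and the promoter region (-9.58; adjusted p = 0.0453). The 22.1 kb call was lost without unstimulated control library 1 or control HSC library 1 or 5, the 9.5 kb call without diabetic HSC library 3 (adjusted p = 0.0520 by limma), and the promoter region call was kept in only 4 of 11 fits with 1 library left out (adjusted p of up to 0.211).

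At Cish, the regions called at its start site and downstream were higher in HSCs: those at the promoter and 9.0 kb in both disease groups, and those at 6.8 and 14.0 kb in diabetic mice alone. A region 1.4 kb from the start site was not called in either disease group. The region 9.0 kb from the nearest start site, beyond the gene's end (chr9:107307132-107308980, intergenic), read 65.1, 70.1 and 74.4 in control HSCs and 18.8, 41.9 and 61.0 in unstimulated control BMDMs, without overlap. In diabetic mice it read 66.5, 69.9 and 76.6 against 14.4, 20.7, 33.9, 43.7 and 69.1, with 1 BMDM library inside the HSC range. The differences were 29.1 ± 8.25 (SE; adjusted p = 0.00543 by limma) and 34.1 ± 8.65 (adjusted p = 0.00235), and both held when any single library was left out. HSC libraries spread little here, with an SD of 3.40 in control and 3.67 in diabetic mice.

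The Cish promoter region was higher in HSCs in both disease groups (11.7, adjusted p = 0.0227, and 15.6, adjusted p = 0.00441), the control call being lost without unstimulated control library 1 or 2 or control HSC library 6 (adjusted p of up to 0.0849). A region 14.0 kb from the nearest start site (chr9:107312502-107313877) was higher than in unstimulated diabetic BMDMs both in diabetic HSCs (34.7 ± 9.83; adjusted p = 0.00619 by limma) and in stimulated diabetic BMDMs (32.4 ± 9.83; adjusted p = 0.0407). Both differences rest on the same unstimulated libraries, which read 11.4, 14.4, 20.7, 57.5 and 66.0, and 3 of those 5 had no peak there. The stimulation call was lost when any 1 of 7 libraries was left out (adjusted p of up to 0.143). Regions at 6.8 kb in diabetic mice (23.5; adjusted p = 0.0450) and 13.1 kb upstream, in an intron of Mapkapk3, in control mice (25.2; adjusted p = 0.0327) were also higher in HSCs. With 1 library left out, the first was kept in only 3 of 11 fits (adjusted p of up to 0.158) and the second in 5 of 12 (up to 0.102), and without the libraries in doubt the second was 21.8 (adjusted p = 0.124 by limma). The second was among the 20000 strongest peaks of only 2 libraries. Regions over the 2 start sites of Mapkapk3, the neighboring kinase gene upstream, were lower in HSCs (-16.8 in control mice, and -5.05 and -5.42 in control and diabetic mice), kept in 7 of 12, 11 of 12 and 7 of 11 such fits.

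Socs7, which binds insulin receptor substrates and other adaptor proteins, had no H3K27ac promoter call but the largest called region difference of the family in control mice. The region 23.0 kb from the nearest start site (chr11:97400179-97401552, between Socs7 and Arhgap23) read 8.65, 12.1 and 42.7 in control HSCs and 39.1, 59.1 and 76.7 in unstimulated control BMDMs, and in diabetic mice 9.22, 20.5 and 31.3 against 43.2, 47.1, 61.9, 68.9 and 78.2. A peak was present in all 11 unstimulated libraries and in 2 of 6 HSC libraries of either disease group. The differences were -39.0 ± 8.91 (SE; adjusted p = 0.000645 by limma) and -40.2 ± 9.35 (adjusted p = 0.000957), and both held when any single library was left out. A further region at 35.4 kb (chr11:97411644-97413427) was lower in HSCs in both disease groups (-22.6 and -16.9), the diabetic call being lost when any 1 of 4 libraries was left out. It lay next to the region over the start site of Arhgap23 (chr11:97413470-97417345), so its mark cannot be assigned to Socs7 alone.

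Socs5, Socs4 and Socs6 had calls in diabetic mice for the most part. At Socs5, the region 10.4 kb upstream (chr17:87096908-87097660, intergenic) read 9.22, 15.2 and 23.5 in diabetic HSCs and 20.7, 39.6, 48.7, 70.7 and 76.4 in unstimulated diabetic BMDMs (-35.5 ± 9.33; adjusted p = 0.00329 by limma), where 5 of 6 HSC libraries had no peak. In control mice the same region differed by -11.6 ± 8.90 (adjusted p = 0.330 by limma), and whether the difference changed with diabetes was not tested. The region over a Socs5 exon 26.2 kb into the gene was lower both in diabetic HSCs (-28.7; adjusted p = 0.0132; lost without unstimulated diabetic library 1 or 2) and after stimulation (-29.1; adjusted p = 0.0444), again against the same unstimulated libraries, and the stimulation call was kept in only 3 of 11 fits with 1 library left out. The promoter region of Socs5 was lower in control HSCs (-5.74; adjusted p = 0.0404), a call kept in 5 of 12 such fits and lost without the libraries in doubt (-4.42; adjusted p = 0.191). The regions 10.4 kb upstream and 26.2 kb into the gene were each among the 20000 strongest peaks of only 2 libraries. Their highest percentiles lay in unstimulated diabetic BMDMs, so their choice was not independent of the differences from that group.

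At Socs4, a region at 33.6 kb, over an exon of the neighboring Mapk1ip1l, was lower in diabetic HSCs (-31.3 ± 9.40; adjusted p = 0.00978 by limma). Its libraries did not overlap, with 12.8, 29.2 and 41.5 in HSCs and 44.7, 53.6, 60.1, 68.2 and 71.3 in unstimulated BMDMs. It was among the 20000 strongest peaks of only 3 libraries. At Socs6, the promoter region was higher (6.21; adjusted p = 0.0252) and a region 18.6 kb upstream lower (-28.6; adjusted p = 0.0307) in diabetic HSCs, each kept in 6 of 11 fits with 1 library left out. The upstream region was among the 20000 strongest peaks of only 3 libraries. Neither region of Socs2 was called, with a smallest adjusted p of 0.696 for cell type.

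No region of the 8 loci was called for disease. Of all 44506 regions tested, 0% were called in HSCs (1261 at an unadjusted p under 0.05), 0.00449% in unstimulated BMDMs (2806) and 0% in stimulated BMDMs (2019). The smallest adjusted p in the loci for disease was 0.489, at Socs5 in unstimulated BMDMs. The median difference over the 44 regions was -2.13 percentile points in unstimulated BMDMs, -0.707 in HSCs and 0.219 in stimulated BMDMs, beside 0.163, 0.193 and -0.00252 over all regions.

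The pathway that SOCS proteins act on was read with the same promoter measure in 41 further genes. For cell type in H3K27ac, 8 were called in control mice (3 higher and 5 lower in HSCs, with 16.1% of all promoters called) and 4 in diabetic mice (1 higher and 3 lower, with 15.9% called), so the list was called about as often as all promoters, or less. Among 18 receptor genes, 1 was higher and 5 were lower in control HSCs than in unstimulated BMDMs. H3K27ac was lower at Ifngr2, the second chain of the IFN-γ receptor (-16.6), at Il6ra and Il6st, the chains of the interleukin-6 receptor (-13.4 and -18.2), at Il10rb (-12.3) and at Il4ra (-18.3). In diabetic mice it was lower at Ifngr2 (-17.5), Il6ra (-24.8) and Il6st (-21.4). Of 7 STAT genes, Stat4 was higher in HSCs (16.9 in control and 17.4 in diabetic mice), and of 8 other inhibitors Ptpn11, a phosphatase, was higher in control mice (15.5).

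None of the 4 Janus kinase genes and none of the 4 ubiquitin ligase partners was called for cell type in H3K27ac. With stimulation, 1 of the 41 was called, where 2.92% of all promoters were: Jak1 fell by 15.7 percentile points in diabetic BMDMs, from a mean of 97.2 to 81.4. No pathway gene was called for disease in H3K27ac. In H3K4me3, 1 of 40 tested was called, where 5.34% of all promoters were: Csf2ra, lower in control HSCs (-22.0).

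Members varied together only in part. Across the 35 H3K27ac libraries the highest correlation between members was that of Socs1 with Socs3 (Pearson r = 0.603), and the lowest was that of Socs1 with Socs4 (r = -0.327). For H3K4me3 the value for Socs1 with Socs3 was -0.405. These values describe libraries that share cell state and list length, and no test was made of them.

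Among genes whose start sites lay more than 100 kb away, the H3K27ac order of Socs1 was most like that of Sdc1 (r = 0.878 over 35 libraries), then of Nln and Sgtb (0.845 each, with identical values). Socs3 was most like Fzd1 (0.788), Rsrc1 and Pde8a (0.785 each). Cish was most like Bptf (0.742), Rnf144a (0.707) and Zfp507 (0.693), and Socs5 was most like Pgd (0.680), Mcoln2 (0.642) and Fam83f (0.631). The groups of cells and treatment enter each of these values.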

How the data were processed

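H3K27ac and H3K4me3 ChIP-seq peak lists were analyzed for 70 libraries of mouse marrow cells, and the 36 input samples, which had no list of their own, were not analyzed here. The submitters' processing notes name Trim Galore 0.3.3, cutadapt 1.8, FastQC 0.11.3, Bowtie2 2.2.6, Picard 2.18.14 and 2.19.2, bedtools 2.19.1 and MACS2 2.2.7.1, with GRCm38 and mm10 as the build. Peaks were called by the authors within each library against the matched input, and 0 peaks lay beyond the length of any of 21 chromosomes of GRCm38. In the deposited lists each peak has a whole-number score, a ratio (fold enrichment over background) and a −log10 p and −log10 q. The deposited −log10 p ranked the peaks of a list, the fold was used in an alternative ranking, and the score was used only to check the format. The lists hold no read counts, so depth is unknown and the number of peaks is given in its place.

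Summits of 1 numbered interval were taken as 1 peak. A promoter took the highest −log10 p of any peak within 1000 bp of any GENCODE M21 start site, and percentile ranks were taken within each library over 21938 promoters or 44610 H3K27ac regions. Features with a peak in at least 6 of the 35 libraries of a mark were tested (16825 and 17105 promoters, 44506 regions), and all 8 members passed. Differences were fitted with limma 3.58.1 in R 4.3.3 (trend and robust empirical Bayes) on all 6 groups of a mark. The percentile scale is bounded, and a library with a shorter list gives a higher percentile to features without a peak. Procedures were tested on simulated data. Exact permutation tests over libraries, a fit of only the groups compared, a replicate block, other rankings, windows, filters and overlaps, list length as a covariate, and leaving out single libraries or those in doubt were the alternatives. For H3K27ac the libraries in doubt were control BMDM libraries 5 (stimulated), 5 and 6 (unstimulated), and for H3K4me3 control stimulated 6, diabetic stimulated 1 and 2 and control unstimulated 6, named from earlier work on these lists.

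All 8 members were named, with every region called in their loci and, where a comparison had none, those with the smallest p. Genes most like a member were the 3 highest in Pearson correlation for members with an H3K27ac promoter call. Members, pathway genes, stimulation targets and cell type markers were listed with earlier results of these data known. Values of some listed genes are not reported here.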

Additional observations from a re-analysis of the deposited data

Results flagged for a closer look

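Over 96 groups (8 promoters, 2 marks and 6 groups each), 4 had a library far from the rest by Dixon's test (the gap ratio, its distance from the nearest library over the group's range, was past the 95% limit), and chance gives about 1 group in 20. For Socs1 in H3K27ac, unstimulated diabetic library 1 stood at 88.4 and the next at 78.0 (gap ratio 0.713). It lies on the side of the stimulated libraries, and the Socs1 stimulation call in diabetic BMDMs was kept when it was left out. For Socs2 in H3K27ac, unstimulated control library 4 stood at 66.9 and the next at 55.4 (gap ratio 0.761). For Socs2 in H3K4me3, diabetic HSC library 5 stood at 66.2 and the next at 88.1 (gap ratio 0.831). For Socs4 in H3K4me3, diabetic HSC library 6 had no promoter peak (29.6) and the next stood at 71.6 (gap ratio 0.664). That library has the shortest list of the series, with 13730 peaks and 8946 promoters with a peak, and the part of list length in its value was not tested.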

How the results depend on the processing

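No promoter or region call of the members changed sign under an alternative, and the counts of members and regions called for disease stayed at 0 under all of them. For H3K27ac promoters, the 4 control cell type calls became 0 with the exact permutation test and with Fisher's exact test on the top 10000 peaks, 2 with a replicate block, with normal scores and with no filter, and 1 ranked by fold and without the libraries in doubt. The 2 diabetic calls (Socs3 and Cish) were both lost with the permutation test, ranked by fold and with Fisher's test, and the count was 1, 1 and 0 because Socs1 and Socs6 were called in their place under the first and the second. The 1 stimulation call became 0 with the permutation test, in the fit of the 2 groups only, with the replicate block, with Fisher's test, ranked by fold and with no filter. Fisher's test called none of the 16825 H3K27ac promoters in any comparison of 2 groups, and the permutation test called none for stimulation. The losses under Fisher's test, and under the permutation test for stimulation, therefore say nothing about the members in particular. For cell type the permutation test called 1617 H3K27ac promoters in control and 2225 in diabetic mice, so its cell type losses cannot be set aside in this way. The block also gave 1 H3K4me3 call for cell type in control mice, Cish, where the main result was 0. For regions, 12 control calls became 5 ranked by fold and 6 with regions from the top 10000 peaks (fewer regions tested), 15 diabetic calls became 4 with the latter, and 3 stimulation calls became 1 in the fit of 2 groups and ranked by fold. With the block all 3 stimulation calls were lost (Socs1 at 24.0 kb with an adjusted p of 0.0751, Socs5 0.182 and Cish 0.195) and 1 other region was called. Leaving out 1 library gave 2 to 4, 1 to 3 and 0 to 2 promoter calls and 8 to 12, 10 to 14 and 1 to 4 region calls, in that order of comparisons. Except where stated, the cause was not tested. Over all comparisons, same-numbered libraries had correlated deviations in some pairs only (r from -0.294 to 0.364, not all over 0.1), so the numbers were not taken as pairs. Between stimulated and unstimulated diabetic BMDMs in H3K27ac, r ran from 0.0227 to 0.355. There 4 of 5 pairs were over 0.1, and 2 were highest with their own number. The block called 47 promoters and 427 regions in that comparison, against 491 and 2218 in the main fit. Whether these libraries pair by animal was not tested. Depth is unknown, the percentile shows order alone, and a change shared by all promoters cannot be seen.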

Other observations

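H3K27ac intervals in the SOCS loci were widest in sum at Socs3, where the peaks of a library covered a median of 8.56 kb (3.85 to 21.7 kb) of the gene with its flanks, and narrowest at Socs6, with a median of 1.11 kb. The strongest promoter peak of Socs3 in H3K27ac was up to 7.91 kb wide, and that of Socs6 stayed between 0.954 and 1.297 kb in all 35 libraries. For H3K4me3 the Socs3 locus had a median of 4.37 kb in peaks, and the Cish locus as little as 0.238 kb in 1 library.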
